A study of Mus musculus with 15 samples.

Results

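Day 15 +Wnt tissue was compared with the Day 10 Rx::GFP+ tissue from which it was explanted, which spans the whole 5-day path from optic progenitor to pigment epithelium. The genes described are those with a normalised read count of at least 1 CPM (the authors' library-scaled unit) in at least 3 of the 15 libraries of the series, 13845 of 23244 entries, measured in 6 of the 15 samples. All tissue came from 1 mouse embryonic stem cell line, EB5 Rx::GFP+/-, whose green fluorescent protein reports the eye field gene Rax (also Rx). Its cells were kept in 2i medium with CHIR99201 and a MEK inhibitor, which the labels and the study's methods name differently, then aggregated in SFEBq culture (a serum-free floating aggregate culture that forms optic tissue) with Matrigel. Day 10 Rx::GFP+ is GFP+ epithelium dissected with forceps at day 10 and taken at once. Day 15 +Wnt is the same epithelium after further culture in retinal maturation medium with the GSK3 inhibitor CHIR99201, which raises Wnt/β-catenin signalling, at 3 µM over 24 h and at 1 µM from then on. Day 12 +Wnt is the same treatment stopped at day 12, and Day 15 +Fgf received 5 ng/ml bFgf and 10% FBS in place of CHIR99201. Each group held 3 biological replicates. No RNA was sequenced from tissue cultured to day 15 without a stimulus. The inhibitor, dissection, change of medium and time in culture therefore cannot be told apart in the change from Day 10. The paper stained such explants, kept in the medium alone, and reports both pigment epithelium-like and neural retina-like tissue in them. The difference between Day 15 +Wnt and Day 15 +Fgf holds what CHIR99201, bFgf and FBS each did, and these cannot be told apart.

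The retinal pigment epithelium (RPE) and the neural retina arise from 1 field of optic neuroepithelium. The field is marked by Rax, Six3, Six6, Pax6 and Lhx2. In prospective RPE the factors Mitf and Otx2 switch on melanin genes, and Wnt/β-catenin signalling favours this fate. Fgf signalling favours the neural retina fate. Mature RPE makes melanin in a lysosome-related organelle, the melanosome, recycles retinoid in the visual cycle, takes up shed outer segments and rests on Bruch's membrane.

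Recovered reads on genes ranged from 13648344 to 16086698 at Day 10 and from 12556998 to 15161284 at Day 15 +Wnt, which puts the worth of a single read at 0.0620 to 0.0764 CPM, and a count of 0 allows up to 3 reads, or 0.186 to 0.229 CPM, in a library. All levels are the authors' normalised CPM and are not per length, so they are compared between samples and not between genes. Changes are log2 changes on the scale log2(CPM + 0.3), with their standard error (SE), and a gene rose or fell where limma gave a Benjamini-Hochberg adjusted p under 0.05 over all 13845 genes. Log2 values correlated at 0.992 to 0.995 within the groups and at 0.868 to 0.882 between them. In bulk RNA, fewer cells of a type and less RNA per cell cannot be told apart.

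From Day 10 to Day 15 +Wnt, 5476 genes rose (39.6%) and 5570 fell (40.2%). These are the shares to set beside the counts of each gene list below. By a log2 change of at least 1, 2640 rose (19.1%) and 1219 fell (8.8%), and by at least 3, 458 rose and 72 fell. The libraries of both groups did not overlap for 11160 genes (80.6%). The median change was -0.0048, with 5% of genes below -1.25 and 5% above 2.55. The larger changes were therefore mostly increases. This depended on scaling: increases made up 68.4% of changes of at least 1 on the deposited scale, 78.5% with plain CPM (median of all genes 0.16) and 51.1% after quantile normalisation (median -0.11).

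**Figure D1:**
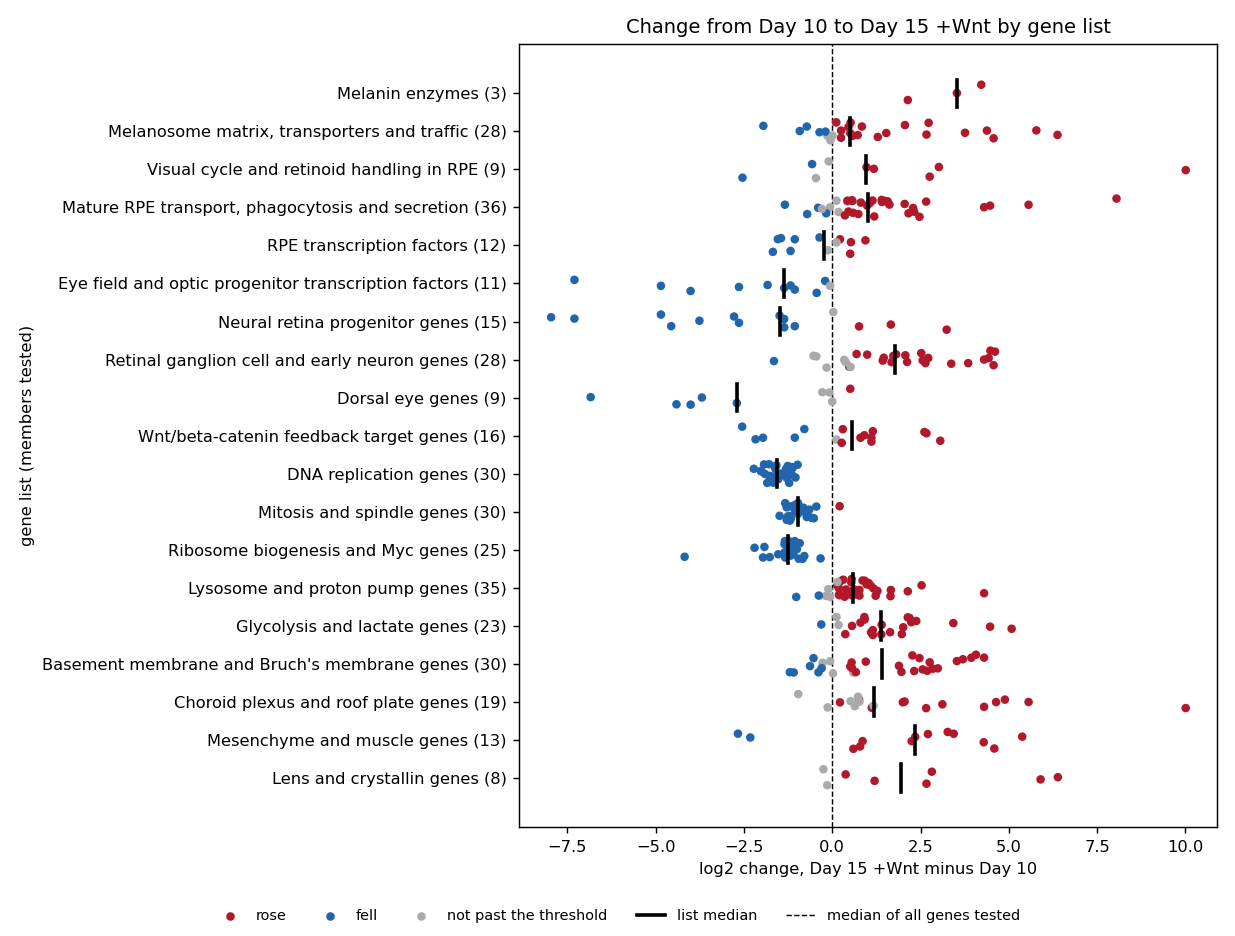
Log2 change from Day 10 to Day 15 +Wnt (x axis) for each tested member of 19 gene lists (y axis, number tested in brackets), with red points for genes that rose, blue for genes that fell and grey for the rest, thick bars for list medians and a dashed line for the median of all genes. All 30 DNA replication genes lie to the left of 0 and all 3 melanin enzymes to the right, at 2.14 to 4.22.

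All 3 melanin enzymes rose. Tyr, the rate-limiting enzyme of melanin synthesis, Tyrp1 and Dct, which act after it, are the 3 enzymes. For these 3 enzymes and for Trpm1 the 250 bases before the RefSeq start site (GRCm38.p6) are shown. They were chosen because the hexamer CATGTG, the core of the M-box to which Mitf can bind, lies in each of them. Trpm1, an RPE channel gene, is not in the melanin and melanosome lists. Capitals mark CATGTG or its reverse complement CACATG.
Tyr, chr7:87493513-87493762, minus strand: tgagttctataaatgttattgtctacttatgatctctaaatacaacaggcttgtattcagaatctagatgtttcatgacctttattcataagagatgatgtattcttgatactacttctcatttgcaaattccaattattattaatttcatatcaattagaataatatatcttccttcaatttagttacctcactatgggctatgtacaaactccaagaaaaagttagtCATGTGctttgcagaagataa
Tyrp1, chr4:80833963-80834212, plus strand: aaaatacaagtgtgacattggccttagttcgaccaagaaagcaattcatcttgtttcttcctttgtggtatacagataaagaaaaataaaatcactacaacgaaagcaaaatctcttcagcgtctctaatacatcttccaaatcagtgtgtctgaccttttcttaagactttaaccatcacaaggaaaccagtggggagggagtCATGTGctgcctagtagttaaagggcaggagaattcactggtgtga
Dct, chr14:118052247-118052496, minus strand: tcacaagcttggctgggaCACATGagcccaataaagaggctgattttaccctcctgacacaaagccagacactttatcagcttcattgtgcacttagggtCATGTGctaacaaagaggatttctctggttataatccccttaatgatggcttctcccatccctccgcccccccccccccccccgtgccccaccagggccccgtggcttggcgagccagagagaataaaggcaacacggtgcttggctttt
Trpm1, chr7:64153585-64153834, plus strand: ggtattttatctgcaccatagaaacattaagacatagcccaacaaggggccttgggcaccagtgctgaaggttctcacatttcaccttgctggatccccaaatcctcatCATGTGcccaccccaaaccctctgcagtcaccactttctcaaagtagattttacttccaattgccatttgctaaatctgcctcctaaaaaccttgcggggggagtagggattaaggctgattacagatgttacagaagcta
The hexamer, searched on both strands, starts 21 bases before the RefSeq start of Tyr, 46 before Tyrp1 and 141 before Trpm1, and at 232 and 150 bases before Dct. GENCODE places the start of Tyrp1 at 80834123, upstream of its site. A second window of Trpm1 and the window of Gpnmb do not hold it. It was found in 7 of the 26 melanin and melanosome list genes with a window (26.9%; 32 genes were looked for), against 12.3% of all 32851 windows and 13.8% of all genes with a window. Beside the 3 enzymes these were Oca2, Slc24a5, Myo7a and Hps1.

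Tyr (chr7:87424771-87493512 on mm10, by GENCODE) was at 71.5, 48.6 and 40.6 CPM in the Day 10 replicates and at 667, 542 and 614 in the Day 15 +Wnt replicates, a rise of 11.3-fold (log2 change 3.53, SE 0.18, adjusted p = 1.57e-11). Tyrp1 (chr4:80834123-80851719) went from 36.3, 24.4 and 24.6 CPM to 586, 472 and 526, a rise of 18.6-fold (4.22, SE 0.14, adjusted p = 1.2e-13). Dct (chr14:118012790-118052244) went from 193, 172 and 157 to 828, 687 and 788, a rise of 4.41-fold (2.14, SE 0.14, adjusted p = 2.34e-10). None of the 3 enzymes overlapped between the groups, which held for 80.6% of all genes. All 3 were already well above the floor in the GFP+ tissue at Day 10. At Day 15 +Fgf, Tyr was at 23.3, 28.7 and 30.5 CPM, so the +Wnt tissue was higher by 4.45 on the log2 scale (adjusted p = 2.1e-12), and Tyrp1 and Dct were higher than in +Fgf by 3.95 and 3.54.

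Of the 29 genes for melanosome matrix, transporters and traffic, 28 were tested, 19 rose and 5 fell, 10 and 1 of them by at least 1, with a median of 0.52 (16, 7 and 0.34 after quantile normalisation). Mlana, a melanosome maturation protein, changed most, from 0.613, 0.134 and 0.382 CPM (2 to 9 reads) to 64.3, 45 and 53.1 (log2 change 6.38, SE 0.30, adjusted p = 5.47e-12). The fibril protein Pmel went from 694, 513 and 472 CPM to 4200, 3110 and 3740, a rise of 6.59-fold. Gpnmb, its relative in melanosomes and lysosomes, went from 126, 72.2 and 106 to 1550, 1160 and 1330, a rise of 13.3-fold. All 3 were separate in every library, as were 80.6% of all genes. Among the membrane transporters, Slc24a5 rose 60.5-fold, Slc45a2 4.13-fold and Oca2 3-fold, and the melanosome receptor Gpr143 rose 26.5-fold. Of the proteins that carry melanosomes along actin, Mlph rose from 0.886, 0.735 and 0.535 CPM to 24.3, 22.8 and 23.7, Rab27a rose 6.39-fold, and Myo7a, the motor used in RPE, rose by 1.29 on the log2 scale, or by 0.41 without passing the threshold after quantile normalisation. The genes that fell are also in traffic or biogenesis: Rab27b fell by 1.95, Mreg by 0.92, Hps3 by 0.72, Rab38 by 0.36 and Hps5 by 0.19. The calls of Rab38 and Hps5 were lost with edgeR on recovered reads (-0.30 and -0.14), with plain CPM and without Day 10 replicate 1 (-0.24 and -0.14). Rab38 also lost its call without Day 10 replicate 2 or Day 15 +Wnt replicate 2 (-0.39 and -0.22), and Hps5 without Day 10 replicate 3 or Day 15 +Wnt replicate 1 (-0.18 and -0.16). With RNA integrity as a covariate the call of Hps5 was lost too (-0.15, adjusted p = 0.165). Hps3 overlaps the ferroxidase gene Cp, which also fell, on the other strand, and the strand used in counting is not given in the sources used here. Of the 28, 18 were higher than in Day 15 +Fgf and 3 lower, against 30.6% and 38% of all genes.

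**Figure D2:**
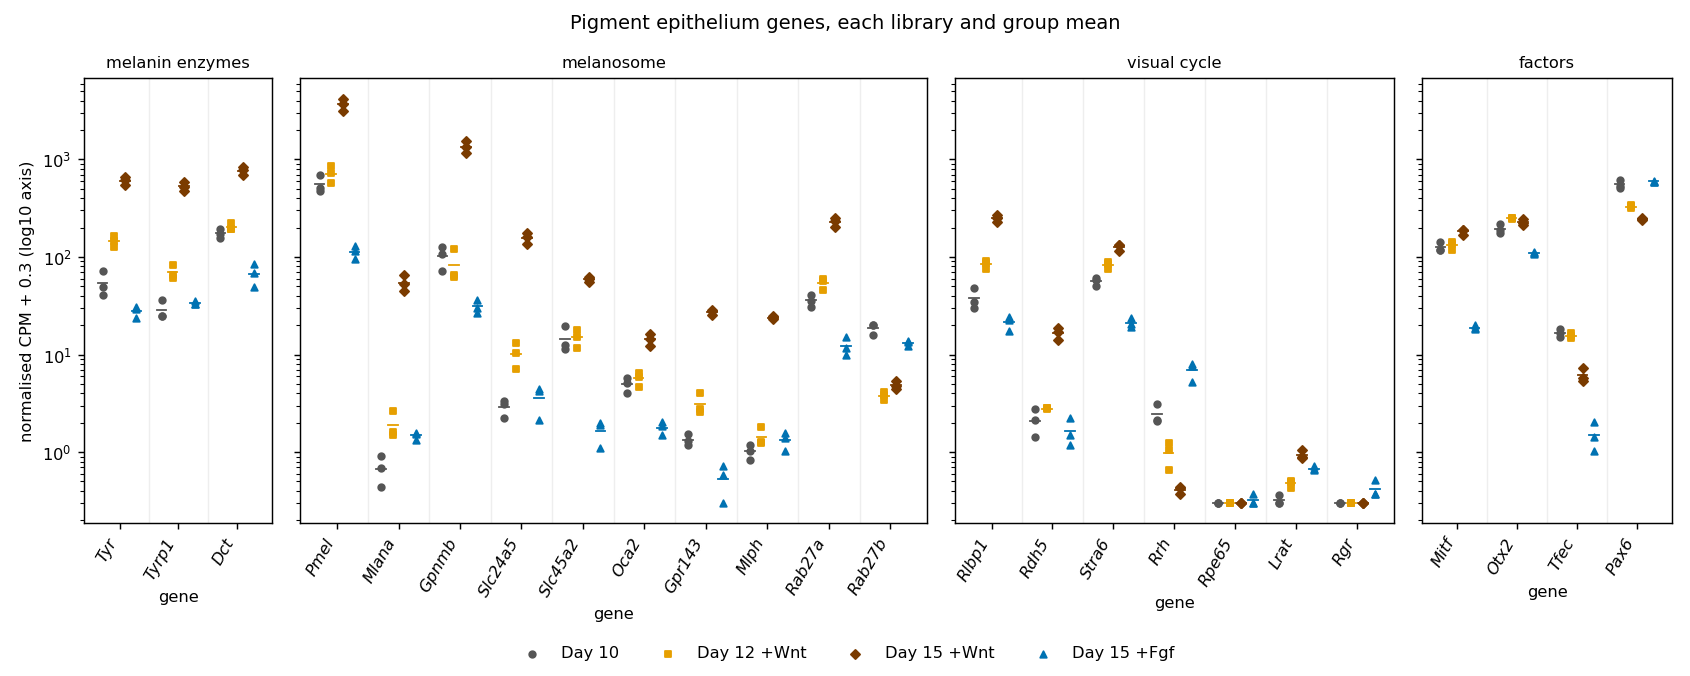
Normalised CPM + 0.3 on a log10 axis for RPE genes, with 1 point per library and a short bar for the mean of each group (Day 10, Day 12 +Wnt, Day 15 +Wnt and Day 15 +Fgf, 3 libraries each). The Day 15 +Wnt points lie above the other groups for the melanin enzymes and most melanosome genes, while Rpe65 and Rgr lie at the pseudocount in Day 10 and Day 15 +Wnt.

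Carriers and dehydrogenases of the visual cycle rose. Rlbp1, which carries retinal in RPE, went from 47.8, 34.6 and 29.6 CPM to 269, 230 and 253 (log2 change 2.76, SE 0.14, adjusted p = 1.71e-11). Rdh5, which oxidises 11-cis-retinol, went from 2.45, 1.14 and 1.83 to 16.8, 13.8 and 18.4 (3.02, SE 0.24). The retinol-binding protein receptor Stra6 rose 2.27-fold and Rdh11 rose by 0.97. Each of these rises was larger than the spread between replicates. The defining enzymes of the cycle were not detected or nearly so: Rpe65, the isomerase, and Rgr, a photoisomerase, had 0 reads in all 6 libraries, and Lrat, which esterifies retinol, had 0, 1 and 0 reads at Day 10 and 8 to 12 at Day 15 +Wnt. Rrh, an RPE opsin, went from 1.84, 2.81 and 1.76 CPM to 0.124, 0.0746 and 0.14, with 92 reads in all at Day 10 and 5 at Day 15 +Wnt, a ratio of 18.9 (95% counting interval 7.79 to 59.5). In all, 9 of the 12 listed genes were tested, 5 rose and 2 fell, with a median of 0.97. Of 40 genes for transport, phagocytosis and secretion in mature RPE, 36 were tested, 27 rose and 4 fell, 18 and 1 of them by at least 1, with a median of 1.03. The prostaglandin synthase and retinoid carrier Ptgds went from 0.341, 0.201 and 0.306 CPM to 158, 129 and 177, a rise of 547-fold (8.05, SE 0.17, adjusted p = 1.56e-15). The carbonic anhydrase Car12 rose 59.4-fold, the lactate exporter Slc16a3 22.3-fold and the water channel Aqp1 22.1-fold. Gas6, which bridges outer segments to the receptor Mertk, went from 11.8, 12.9 and 14.5 CPM to 66.7, 54.7 and 57. Mertk itself was at 7.77, 6.62 and 6.88 CPM and at 10.5, 8.65 and 9.89 (0.43, SE 0.21, adjusted p = 0.0669), and passed the threshold with edgeR (0.51, adjusted p = 0.0147) and DESeq2 (0.48, adjusted p = 0.0148) on recovered reads. The RPE potassium channel Kcnj13 fell by 1.34, from 6.95, 5.88 and 5.35 CPM to 1.99, 2.91 and 1.82. The chloride channel Best1 had at most 1 read in a Day 10 library and 1 to 4 in a Day 15 +Wnt library, and the RPE lactate transporter Slc16a8 was at 0.382 to 1.27 and 0.746 to 1.05 CPM.

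Some of these genes are shared with the choroid plexus, a neighbouring secretory epithelium. Ttr, the thyroxine and retinol-binding protein carrier made in quantity by choroid plexus and also by RPE, showed the largest change of all genes. It was at 0.477, 0.669 and 0.611 CPM at Day 10, at 3.84, 5.57 and 3.38 at Day 12 +Wnt and at 1230, 807 and 749 at Day 15 +Wnt (10.01, SE 0.80, adjusted p = 4.61e-09). At Day 15 +Fgf it was at 3.61, 121 and 66.6, a lower level with a wide spread (log2 difference 4.84, adjusted p = 4.83e-05). Of 20 choroid plexus and roof plate genes, 19 were tested, 12 rose and 0 fell, with a median of 1.17 (13 and 2 after quantile normalisation). The summed level of the list went from between 493 and 557 CPM to between 2050 and 2660, of which Ttr made up 749 to 1230. Ttr, Car12, Aqp1, Enpp2, Slc4a5 and Otx2 stand in this list and in an RPE list. Of those that do not, the potassium channel subunit Kcne2 had 4 reads in all at Day 10 and 415 at Day 15 +Wnt, a ratio of 101 (95% counting interval 39.2 to 373), Calml4 rose 48.7-fold and the folate receptor Folr1 rose 1.71-fold, while Kl, another choroid plexus gene, had 4 reads in all at Day 10 and 13 at Day 15 +Wnt. The part of choroid plexus cells in these changes was not tested.

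Mitf and Otx2 moved far less than the melanin enzymes. Mitf (chr6:97807052-98021349) was at 141, 119 and 118 CPM at Day 10, at 141, 134 and 119 at Day 12 +Wnt and at 191, 169 and 188 at Day 15 +Wnt, a rise of 1.45-fold (0.53, SE 0.07, adjusted p = 4.61e-06). At Day 15 +Fgf it was at 17.8, 18.3 and 19.6 CPM, lower by 3.28 on the log2 scale. Otx2, its partner, rose by 0.22 (adjusted p = 0.0307), a call that was lost without Day 10 replicate 1 or 3 or Day 15 +Wnt replicate 1 or 3, at 0.16 to 0.23. With RNA integrity as a covariate the call was also lost (0.14, adjusted p = 0.293). Sox9, which acts with both on RPE genes, rose by 0.94, from 28.1, 30.2 and 29.7 CPM to 53.4, 60 and 56.5, and Nr2f2 rose by 0.51. In the other direction, Tfec, the RPE member of the Mitf family, went from 17.8, 16.2 and 15 CPM to 7.01, 5.44 and 5.05 (-1.45, SE 0.19). Msx2, a homeobox gene of the dorsal optic vesicle, fell by 1.68, Nr2f1 by 1.54, Pax6 by 1.18, Lhx2 by 1.06 and Otx1 by 0.36, the last a call lost after quantile normalisation (-0.18) and with plain CPM (-0.19). In all, 4 of 12 RPE transcription factors rose, none by 1 or more, and 6 fell, 5 by at least 1. Of all genes 39.6% rose and 40.2% fell. The median of the list was -0.24, or -0.07 with plain CPM.

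Most eye field and neural retina genes fell. Of 11 tested eye field factors 0 rose and 10 fell, 8 by at least 1, with a median of -1.36. Of 15 neural retina progenitor genes, some in both lists, 3 rose and 11 fell, with a median of -1.49. Six6 (chr12:72939892-72944899) went from 273, 318 and 285 CPM through 29.4, 31.8 and 26.6 at Day 12 to 1.49, 2.16 and 1.12, a fall of 183-fold. Rax, whose reporter was used to dissect the tissue, went from 174, 156 and 163 through 43, 51.1 and 39.9 to 5.83, 5.15 and 5.26, a fall of 30.3-fold (-4.85, SE 0.08, adjusted p = 1.57e-16). Six3 fell by 2.64, Sox2 by 1.36 and Hes1 by 1.83. Rax, Six3 and Six6 each fell again after Day 12, by 2.97, 1.30 and 4.00. Six6, Rax and Six3 overlap other annotated genes on the other strand. Pax6 and Lhx2, which both fates use, were at 514 to 621 and 465 to 495 CPM at Day 10 and at 238 to 252 and 215 to 257 at Day 15 +Wnt. Of the progenitor genes, Hmx1 fell by 4.56, the Wnt antagonist Sfrp2 by 3.76, from 656, 679 and 690 CPM to 49.5, 47.7 and 50.9, and Fgf15 and Dkk3 by 1.49 and 1.36. Fgf15 and Dkk3 fell further by Day 12 and then rose, by 1.05 and 1.57. The 3 that rose were Fabp7, a fatty acid carrier of radial glia (3.24), the Notch target Hes5 (1.66) and the Notch ligand Dll1 (0.76).

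**Figure D3:**
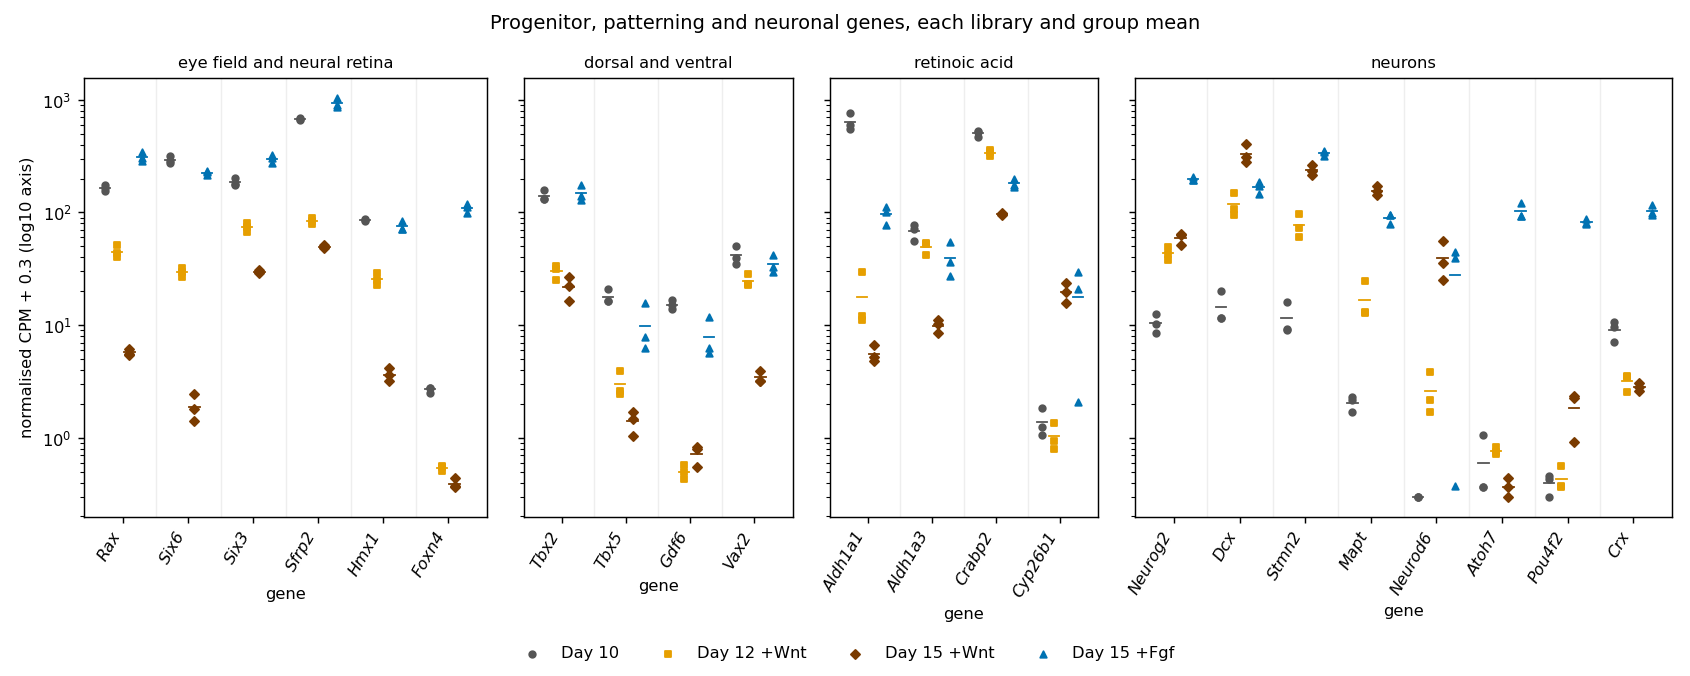
Normalised CPM + 0.3 on a log10 axis for eye field, patterning, retinoic acid and neuronal genes, with 1 point per library and a short bar for the mean of each group (Day 10, Day 12 +Wnt, Day 15 +Wnt and Day 15 +Fgf, 3 libraries each). Rax and Six6 step down at each time, and Dcx, Stmn2 and Mapt step up.

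Several genes that pattern the retina along its axes fell. Of the dorsal genes, the T-box factor Tbx5 went from 16.1, 16.2 and 20.6 CPM to 1.18, 0.746 and 1.4, Tbx3 fell by 4.01, Tbx2 by 2.70 and the BMP ligand Gdf6 by 4.41. Bmp4 was at 34.4 to 44.8 CPM and at 31.2 to 36.4 (adjusted p = 0.196 over 15 libraries and 0.026 over the 6 libraries). Of the ventral and stalk genes, Vax2 fell by 3.58 and Pax2 by 4.75. Of 11 tested optic stalk and ventral eye genes 5 rose and 4 fell, with a median of 0.24, or -0.01 after quantile normalisation, and of 16 ciliary margin genes 3 rose and 7 fell, with a median of -0.17 (6 and 4, at -0.01, with plain CPM). In the dorsal list 5 of 9 tested genes fell, all 5 by at least 1, and 1 rose, Nr2f2. Both retinaldehyde dehydrogenases named here fell. Aldh1a1, the dorsal retinaldehyde dehydrogenase, went from 596, 552 and 763 CPM through 10.8, 29.6 and 11.8 at Day 12 to 4.96, 6.34 and 4.49, a fall of 121-fold (-6.84, SE 0.51, adjusted p = 1.59e-09), and Aldh1a3, the ventral one, fell 7.05-fold. The near-identical Aldh1a7, to which reads of Aldh1a1 can map, went from 157, 146 and 153 to 2.92, 2.39 and 2.1. The binding proteins Crabp1 and Crabp2 fell by 2.20 and 2.38. Of the enzymes that degrade retinoic acid, Cyp26b1 rose from 0.75, 0.936 and 1.53 CPM to 19.4, 15.4 and 23.5 and Cyp26a1 fell from 5.45, 3.74 and 5.73 to 0.062, 0.373 and 1.19. Of the 18 retinoic acid genes tested, 5 rose and 8 fell, against 39.6% and 40.2% of all genes, with a median of -0.28, or -0.44 after quantile normalisation.

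Neuronal genes rose in the +Wnt tissue. Of 28 tested ganglion cell and early neuron genes 21 rose and 1 fell, 18 of them up by at least 1, with a median of 1.77 (19 rose and 5 fell after quantile normalisation). Dcx, a microtubule protein of young neurons, went from 11.3, 11.2 and 19.6 CPM through 94.8, 108 and 150 at Day 12 to 280, 404 and 312 (4.57, SE 0.24, adjusted p = 2.74e-11). Stmn2 rose 21.4-fold, the neuronal tubulin Tubb3 9.97-fold and the synaptic Snap25 29.6-fold, and Mapt, the axonal protein tau, rose 89.4-fold. The proneural factor Neurog2 went from 9.95, 8.29 and 12.3 CPM to 50.6, 64.4 and 62.8. None of these overlapped between the groups, as was the case for 80.6% of all genes. The retinal ganglion cell factors Atoh7, Isl1 and Pou4f2 were low at Day 15 +Wnt, while other such factors of the list are not given here. Atoh7 had 12 reads in all at Day 10 and 3 at Day 15 +Wnt, against 92.6 to 121 CPM at Day 15 +Fgf. Isl1 fell, from 2.59, 3.14 and 1.91 CPM to 1.05, 0.597 and 0.281, against 98.3 to 117 at Day 15 +Fgf. Pou4f2 had 4 reads in all at Day 10 and 65 at Day 15 +Wnt (0.62, 1.94 and 2.03 CPM), a ratio of 15.9 (95% counting interval 5.9 to 59.9), against 77.9 to 87.3 CPM at Day 15 +Fgf. Of the 28, 1 was higher than in Day 15 +Fgf and 23 were lower. Neurod6 and Neurod2, factors of cortical neurons that are not limited to them, were among the largest rises. Neurod6 had 0 reads in all 3 Day 10 libraries and was at 24.9, 35.6 and 56 CPM at Day 15 +Wnt, at least 184-fold higher against a floor of 3 reads per library (adjusted p = 3.61e-05). Neurod2 went from 0, 0.334 and 0.0764 CPM to 27.2, 35.3 and 43.8. At Day 15 +Fgf, Neurod6 was at 0.0737, 39.1 and 44 CPM, and the difference from Day 15 +Wnt did not pass the threshold (adjusted p = 0.121). Of 20 genes of brain regions outside the eye, 14 were tested. Of these 5 rose and 0 fell, against 39.6% and 40.2% of all genes. Among the 5 were Lhx5 (2.85) and Barhl2 (2.95), the latter not limited to the brain. After quantile normalisation 3 of the 14 rose, and with plain CPM 8. The summed level of the list went from between 242 and 283 CPM to between 423 and 478. The cortical hem and dorsal forebrain genes Emx2 and Wnt8b were present from the start, at 61.5 to 77.5 and 48.5 to 61.1 CPM at Day 10, and at 111 to 143 and 74.4 to 96.5 at Day 15 +Wnt, and neither passed the threshold (0.88, adjusted p = 0.234, and 0.65, adjusted p = 0.298). With edgeR on recovered reads Emx2 passed it (0.94, adjusted p = 0.0202). With limma over the 6 libraries alone both passed it (adjusted p = 4.1e-06 for Emx2 and 7.53e-05 for Wnt8b). Irx3, a gene of the caudal forebrain, rose by 0.79, and by 0.32 without passing the threshold after quantile normalisation. Hoxa2, Hoxb2 and En1 did not pass the filter on low values. The part of brain cells in the neuronal change was not tested. Of 13 photoreceptor genes 6 were tested. Crx, the photoreceptor factor, fell by 1.67 from 9.4, 6.75 and 10.3 CPM, and the cone gene Rxrg fell by 3.13, while Prdm1 rose by 2.01 from 0.273, 0.468 and 0.382 CPM to 1.8, 3.06 and 2.46. All 6 were lower than in Day 15 +Fgf.

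Feedback targets of Wnt/β-catenin signalling rose in part. Axin2, which limits β-catenin, was at 76.3, 82.9 and 85.2 CPM at Day 10, at 174, 180 and 199 at Day 12 +Wnt and at 183, 182 and 164 at Day 15 +Wnt (1.11, SE 0.23, adjusted p = 0.000265), with 10.5, 13 and 23.7 at Day 15 +Fgf. The secreted inhibitors Wif1 and Apcdd1 rose by 2.67 and 2.61 and the ubiquitin ligase Rnf43 by 3.06 (2.59 without Day 10 replicate 2). Sp5 rose by 1.11, a call lost with RNA integrity as a covariate (0.52, adjusted p = 0.215). Lef1, a partner of β-catenin, was at 35.3 to 44.2 CPM at Day 10 and at 41.9 to 43.8 at Day 15 +Wnt (adjusted p = 0.601). Others fell. Ccnd1, a cell-cycle target, went from 172, 200 and 195 CPM to 33.4, 40.3 and 53.8, and Lgr5 from 29.9, 44.1 and 32.2 to 4.96, 7.23 and 5.19. Dkk1, a secreted Wnt antagonist, rose first, from 12.3, 9.76 and 14.7 to 31.2, 28.5 and 34.1 at Day 12, and then fell to 2.48, 2.68 and 3.58. Of 16 tested targets 10 rose and 5 fell, with a median of 0.55 (7 and 5, at 0.30, after quantile normalisation). Of all genes 39.6% rose and 40.2% fell, and the other lists in this paragraph stand against the same shares. Of 24 Wnt ligands and secreted regulators 10 rose and 6 fell, with a median of 0.71 (8 and 7, at 0.25, after quantile normalisation). Of the 24, 20 were higher than in Day 15 +Fgf, against 30.6% of all genes. Wnt16 rose by 2.61, Wnt11 by 2.15, Wnt3 by 1.97 and Wnt5a by 1.96, while Wnt6 and Wnt4 fell. Wnt7b rose by 0.93, a call lost without Day 10 replicate 2 (0.74) and with RNA integrity as a covariate (0.55, adjusted p = 0.231). Wnt3a was at 9.68, 6.22 and 9.7 CPM and at 14.5, 13.7 and 11.5, without overlap (0.64, adjusted p = 0.17 over 15 libraries, 0.00465 over the 6 libraries and 0.0363 with edgeR), and at 0.0737 to 1.2 at Day 15 +Fgf. The Wnt receptor Fzd5 fell by 5.18. Of 16 tested Fgf/MAPK feedback genes 5 rose and 9 fell on the deposited scale, and 5 rose and 4 fell with plain CPM. Dusp6, a phosphatase of ERK, went from 55.2, 56.3 and 55.9 CPM to 12.8, 18.3 and 17.5, and the factor Etv5 fell by 0.87, while Ier3 rose by 2.99, Etv4 by 1.31 and Spry1 by 1.21. Spry4 rose by 0.79 on the deposited scale and was at -0.08 after quantile normalisation. Spry2 fell by 0.29, a call lost without Day 10 replicate 3 (-0.22), with plain CPM (-0.13) and with RNA integrity as a covariate (-0.25, adjusted p = 0.0893). Spred1 and Spred2 fell by 0.69 and 0.35, the latter at -0.19 with plain CPM, and Spred3 was at -0.06. Of 16 Notch pathway genes 10 rose and 3 fell, with a median of 0.72, or 8 and 3, at 0.31, after quantile normalisation. Of the 24 tested BMP and TGF-β genes, 7 rose, led by the activin subunit Inhbb (4.24), and 7 fell, led by Ctgf (-2.51), with 5 and 12 after quantile normalisation.

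Growth genes fell. All 30 DNA replication genes fell, 29 by at least 1, with a median of -1.56. The helicase subunit Mcm5 went from 360, 367 and 350 CPM through 234, 234 and 227 at Day 12 to 74.6, 72.6 and 84.4 (-2.22, SE 0.05, adjusted p = 4.99e-15), and the clamp Pcna fell 2.9-fold from 519, 566 and 529. The smallest fall was that of Gins2, by 0.98. Of 30 mitosis and spindle genes 29 fell, 14 by at least 1, with a median of -0.97. From Day 10 to Day 12, 23 of the 30 replication genes fell and 0 rose, while 1 mitosis gene fell and 16 rose, against 29.6% of all genes that fell and 30.6% that rose. Mki67, the proliferation antigen, was at 215, 274 and 248 CPM at Day 10, at 321, 285 and 310 at Day 12 +Wnt and at 145, 157 and 146 at Day 15 +Wnt. Ccnb2, a mitotic cyclin, rose by 1.07 to Day 12 and fell by 0.86 after it, leaving a rise of 0.21. The change was more negative after Day 12 than before it for all 30 replication and all 30 mitosis genes, against 24.5% of all genes tested. Here and below, such comparisons are of whole changes, and the step after Day 12 was the longer. All 30 of each list were lower than in Day 15 +Fgf, against 38% of all genes. Of 25 genes of ribosome biogenesis and the Myc family, 25 fell, 19 by at least 1, with a median of -1.26. Myc, a driver of growth, went from 115, 137 and 121 CPM to 7.61, 7.45 and 7.61 at Day 12 and 5.27, 7.61 and 7.08 at Day 15 +Wnt, a fall of 18.7-fold. Npm1 and Ncl, which are abundant in the nucleolus, fell by 1.00 and 1.18. Mycn fell by 0.33, and was at -0.16 with plain CPM. Of 14 CDK inhibitors and D-type cyclins 6 rose and 5 fell, and Cdkn2c rose from 2.04, 2.21 and 2.67 CPM to 11.7, 10.4 and 10.7 and Cdkn1b rose by 0.52. Of 17 tested early-stage timing and pluripotency genes 1 rose and 8 fell, with a median of -0.96 (10 fell, at -1.62, after quantile normalisation). They include targets of the microRNA let-7 and proteins that control it. Hmga2 went from 393, 472 and 470 CPM to 18.5, 23 and 32.9, Lin28b from 156, 180 and 159 to 23.6, 24.5 and 23.2 and Trim71 from 21.2, 25.1 and 21.1 to 0.496, 1.57 and 1.4. Lin28a was at 127, 135 and 117 CPM at Day 10 and at 0.931, 7.83 and 5.19 at Day 15 +Wnt (-5.05, or -4.24 without Day 15 +Wnt replicate 1). Of the DNA methyltransferases Dnmt3a rose by 1.48 and Dnmt3b fell by 1.69. The pluripotency genes Pou5f1 and Nanog were at 7.75 to 8.41 and 5.52 to 7.87 CPM at Day 10. At Day 15 +Wnt, Pou5f1 was at 2.05, 11.9 and 11.9 and Nanog at 1.61, 6.12 and 5.47, so replicate 1 was the lowest for these and for Lin28a. Without it the change of Pou5f1 went from -0.27 to 0.52 and that of Nanog from -0.81 to -0.26, none of them past the threshold.

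**Figure D4:**
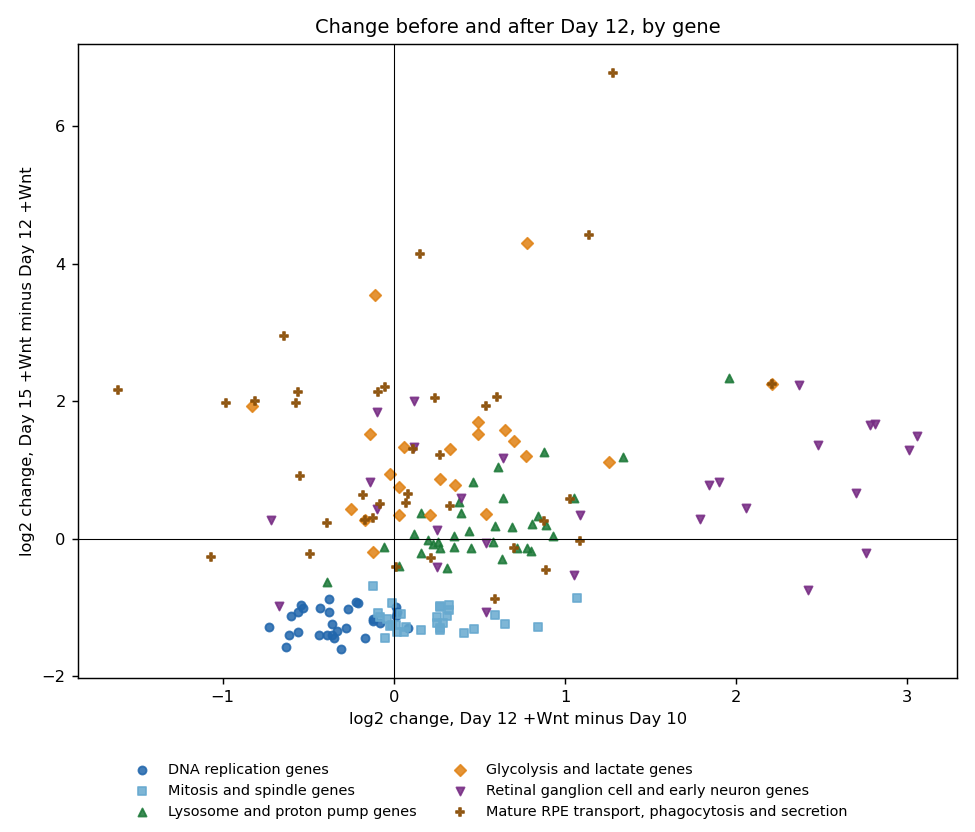
Log2 change from Day 10 to Day 12 +Wnt (x axis) against log2 change from Day 12 +Wnt to Day 15 +Wnt (y axis), 1 point per tested gene, for 6 gene lists marked by colour and shape. Mitosis genes lie near or to the right of 0 on the x axis and below 0 on the y axis, while the highest points on the y axis are mature RPE and glycolysis genes.

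Organelle and metabolic genes rose. Of 35 tested lysosome and proton pump genes 29 rose, 10 by at least 1, and 2 fell, with a median of 0.59. The lipase Lipa went from 30.8, 24.4 and 24.4 CPM through 66.8, 68.8 and 66.3 to 170, 143 and 149 (2.53, SE 0.09, adjusted p = 1.47e-13), and the glucosidase Gaa, the cathepsin Ctsb and the sphingolipid activator Psap rose by 2.14, 1.66 and 1.28. Ctsd, the main protease of RPE phagosomes, fell by 1.02, from 517, 475 and 465 CPM to 259, 224 and 236. Ctsh varied within Day 10, at 0.477, 1.67 and 0.0764 CPM (4.30, or 4.92 without Day 10 replicate 2 and 3.73 without replicate 3). Of the 35, 30 were higher than in Day 15 +Fgf. Of 23 glycolysis and lactate genes 20 rose, 15 by at least 1, and 1 fell, Ldhb (at -0.02 and not called after quantile normalisation), with a median of 1.39. Aldoc rose 35.9-fold, and the glucose transporter Slc2a1 went from 417, 397 and 442 CPM to 1960, 1770 and 2020 (2.19, SE 0.09). Ldha, which makes lactate, went from 589, 661 and 593 to 2520, 2410 and 2510, with 2290, 2290 and 2620 at Day 15 +Fgf (adjusted p = 0.86 for the difference). The Day 12 +Wnt libraries differed among themselves in Ldha, at 1230, 561 and 937. Vegfa, which is secreted by RPE, went from 57.3, 73.9 and 55.6 CPM to 308, 273 and 334. In this list 15 genes changed more positively after Day 12 than before it and 0 less, against 20.2% and 24.5% of all genes. Of 28 tested genes of sterol and fatty acid synthesis 19 rose, 3 by at least 1, and 2 fell, with a median of 0.59, led by the desaturase Scd1 (1.56). Of 17 tested metal and iron genes 9 rose and 6 fell, with a median of 0.51 on the deposited scale and -0.07 after quantile normalisation. Slc11a1, a metal transporter of lysosomes, went from 5.59, 3.94 and 3.9 CPM to 55.4, 35.6 and 46.2, against 0.141 to 0.412 at Day 15 +Fgf, and the ferroxidase Cp, which RPE and neural retina both use, went from 53.8, 85.3 and 81.2 to 8.5, 8.28 and 6.1.

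Of 30 basement membrane and Bruch's membrane genes 20 rose, 15 by at least 1, and 6 fell, with a median of 1.42. The protease Htra1 was at 2.25, 2.34 and 3.67 CPM at Day 10, fell by 0.54 to Day 12 +Wnt and was at 63.6, 45.8 and 68.7 at Day 15 +Wnt (4.30, SE 0.21, adjusted p = 7.92e-12). The short-chain collagen Col8a1 went from 10.1, 7.75 and 8.25 CPM to 111, 102 and 96.5, and the elastic fibre genes Fbln5, Fbln2 and Eln rose 15.6-fold, 17.2-fold and 9.39-fold. Timp3 and Efemp1, which RPE deposits in Bruch's membrane, rose 5.03-fold and 5.63-fold. Of the genes that fell, Col18a1 was down 2.31-fold, Lama1 by 1.09 and Col4a1 by 0.63, a call lost after quantile normalisation (-0.36). In this list 22 genes changed more positively after Day 12 than before it and 1 less. Mesenchyme markers rose beside them. Of 15 listed genes 13 were tested, 11 rose and 2 fell, with a median of 2.35, and the summed level went from between 125 and 141 CPM to between 593 and 711. The proteoglycan Dcn went from 2.59, 1.94 and 2.6 CPM to 113, 97.5 and 122 (5.38, SE 0.41), and the fibrillar collagen gene Col1a1 from 1.91, 1.67 and 3.36 to 70.5, 46.5 and 67.6. Tagln, a smooth muscle gene, fell by 2.67, and Des had 58 reads in all at Day 10 and 1 at Day 15 +Wnt. The part of mesenchyme cells in the matrix change was not tested. Of 24 tested junction and cadherin genes 11 rose and 7 fell on the deposited scale, with a median of 0.50, and 6 and 8, with a median of -0.22, after quantile normalisation. Cldn3 and Ocln, of the tight junction strand, rose by 2.51 and 2.07, P-cadherin (Cdh3), the cadherin of RPE, rose by 1.40, and Cdh11 fell by 2.40. Cdh1 varied too much to call, at 7.02, 7.15 and 9.17 CPM and at 2.11, 12.1 and 9.12 (-0.29, or 0.43 without Day 15 +Wnt replicate 1).

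Markers of other cells were checked beside the pigment genes. Of 15 neural crest and melanocyte genes 13 were tested and 8 rose, among them Tfap2b (2.83), the melanocortin receptor Mc1r (2.16), Ednrb (1.68) and Kit (1.04), and 1 fell, with a median of 0.86 (7 rose and 4 fell, at 0.42, after quantile normalisation). Their summed level went from between 85.8 and 88.8 CPM to between 176 and 203. Sox10, which defines the crest and melanocyte lineage, had 41 reads in all at Day 10 and 4 at Day 15 +Wnt, and Foxd3, another, had 5 and 3. The part of crest cells in the pigment changes was not tested. Of 13 blood, endothelium and microglia genes 5 were tested, 2 rose and 1 fell. Csf1r, a receptor of macrophages, went from 1.23, 1.6 and 1.22 CPM to 19.4, 19.2 and 21.8, while Ptprc, which defines blood cells, had 0 reads in all 6 libraries, and 7 of the list had at most 3 reads in every Day 15 +Wnt library. Of 16 lens genes 8 were tested, 6 rose and 0 fell (5 and 2 after quantile normalisation), and 5 had at most 3 reads in every Day 15 +Wnt library. Their summed level went from between 47.3 and 64.4 CPM to between 140 and 193. Of 15 endoderm and surface ectoderm genes 8 were tested, 2 rose, Dsc3 (3.25) and Cxcr4 (3.21), the latter also a gene of migrating neurons, and 1 fell. The part of these cells in the results was not tested.

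Some genes went from near 0 to high levels or the reverse. At most 3 reads in each Day 10 library and a mean of at least 10 CPM at Day 15 +Wnt were seen for 7 genes. The crystallin gene Cryba2 had 0 reads in each Day 10 library and was at 38.2, 17.3 and 23.4 CPM at Day 15 +Wnt, at least 124-fold higher (adjusted p = 1.37e-12), and 1500015O10Rik was at least 77.2-fold higher. Crybb1, another crystallin gene, had 3 reads in all at Day 10 and was at 30.4, 19.8 and 17.3 CPM at Day 15 +Wnt, a ratio of 326 (95% counting interval 111 to 1580). Both crystallin genes were already on at Day 12 +Wnt, at 0.629 to 0.974 and 2.26 to 4.57 CPM, and at or near 0 at Day 15 +Fgf, with at most 1 and 7 reads in a library. The glycine receptor subunit Glra2, the sarcosine dehydrogenase Sardh and the synaptic vesicle protein Rph3a complete the 7, with ratios of 217, 115 and 504 (95% counting intervals 73.8 to 1050, 49.1 to 357 and 90.1 to 20000). In the other direction 5 genes had at most 3 reads in each Day 15 +Wnt library and a mean of at least 10 CPM at Day 10. Vax2os, the antisense partner of the ventral factor Vax2, had 1037 reads in all at Day 10 and 7 at Day 15 +Wnt, a ratio of 152 (95% counting interval 73.4 to 379). Zscan4f, Gm8994 and Stra8 had 634, 559 and 465 reads in all at Day 10 and 5, 5 and 4 at Day 15 +Wnt, and were also at or near 0 at Day 15 +Fgf, with at most 3 reads in a library. The entry Dio3os Mir1247, which names 2 genes beside Dio3, had 473 and 4. Zscan4f belongs to a family of near-identical copies that mark a transient state of embryonic stem cells, so its reads may be divided among copies. Stra8 is a retinoic acid target of germ cells. With at most 3 reads per library in the low group but a lower mean in the other, the same rule takes the synaptic vesicle gene Syn2, higher at Day 15 +Wnt with a ratio of 82.7 (95% counting interval 35.2 to 256), and Gm2022, Zscan4a and AF067061, higher at Day 10 with ratios of 68.7, 62.9 and 116 (95% counting intervals 31.3 to 188, 28.6 to 172 and 39.5 to 568).

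**Figure D5:**
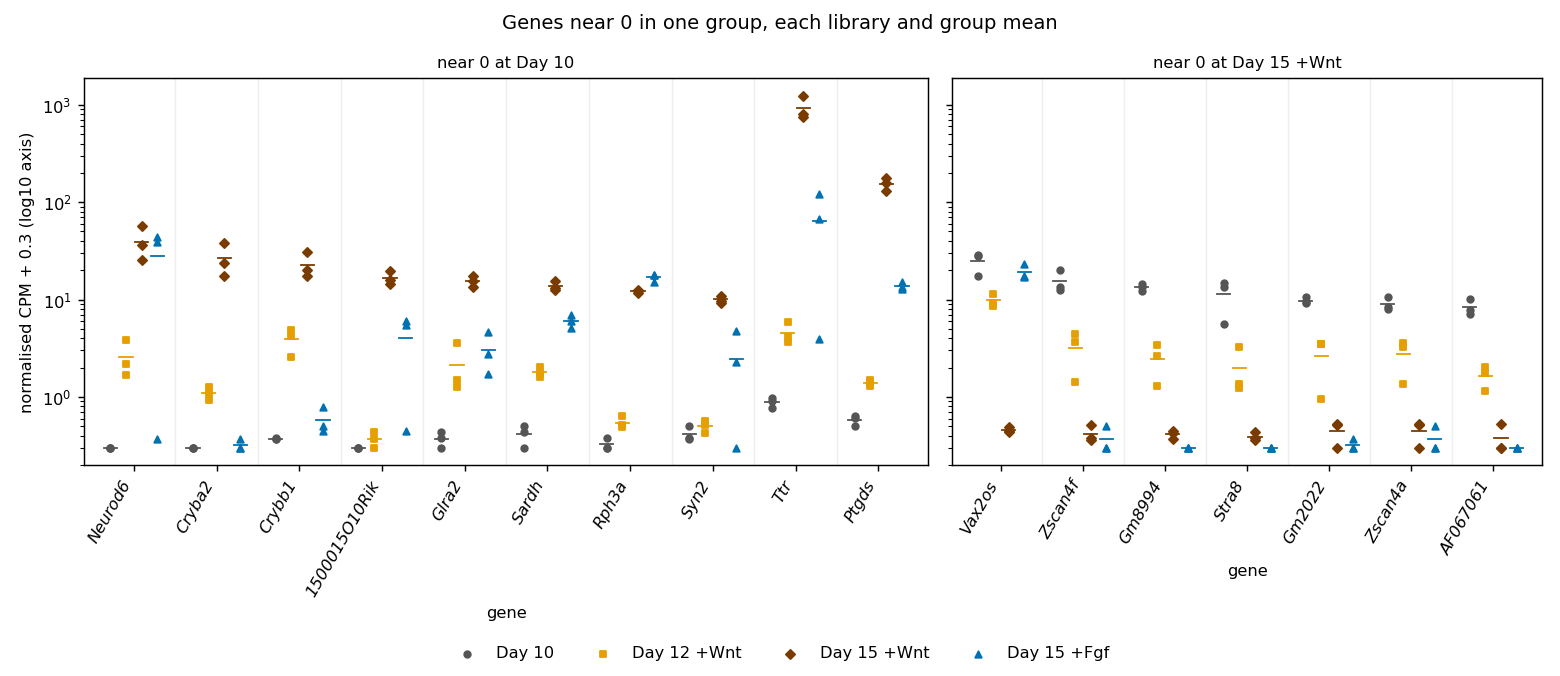
Normalised CPM + 0.3 on a log10 axis for genes near 0 at Day 10 (left) or at Day 15 +Wnt (right), with 1 point per library and a short bar for the mean of each group (Day 10, Day 12 +Wnt, Day 15 +Wnt and Day 15 +Fgf, 3 libraries each). Neurod6 and Ttr spread widely among the Day 15 +Fgf libraries, and all 7 genes of the right panel lie below 1 at Day 15 +Wnt.

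The 12 largest increases among genes with a mean of at least 10 CPM in the higher group were, in order, those of Ttr, Ptgds, Neurod6, Ndufa4l2, Neurod2, Cryba2, Mlana, Mapt, C920025E04Rik, Ifit3, Crybb1 and Tmem130. Ndufa4l2, a mitochondrial protein induced in low oxygen, went from 0.409, 0.468 and 0.535 CPM to 66.6, 65.9 and 84.5 (6.55, SE 0.30) and was at 82.8 to 92.9 at Day 15 +Fgf. Ifit3, an interferon-induced gene, went from 0.409, 0.401 and 0.153 to 41.5, 32.7 and 37.5 (5.94, SE 0.21) and was at 1.72 to 2.61 at Day 15 +Fgf. C920025E04Rik and Tmem130 rose 225-fold and 119-fold. The largest decreases included those of Six6, Aldh1a1, Aldh1a7, Vax2os, Car3, Tbx20, Crhbp, Wfdc1, Zscan4f, Fzd5 and Dio3. The carbonic anhydrase Car3 went from 33.3, 19.5 and 27.7 CPM to 0.124, 0.298 and 0.21 (-5.71, SE 0.23), and was at 0.481 to 0.848 at Day 15 +Fgf. Crhbp, which binds corticotropin-releasing hormone, went from 24, 26.7 and 27.7 to 0.434, 0.298 and 0.351 and was lower than at Day 15 +Fgf by 5.07. Dio3, which inactivates thyroid hormone, went from 21.8, 26.7 and 19.7 to 0.372, 0.298 and 0.351 and was at 19.5 to 23.2 at Day 15 +Fgf. The T-box factor Tbx20 fell 60.9-fold and the secreted Wfdc1 41-fold.

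The step after Day 12 was longer than the step before it, and the steps are compared by their whole changes, not by day. The change after Day 12 was more positive than the change before it for 2799 genes (20.2%) and more negative for 3396 (24.5%). For genes that rose by at least 1, the median share of the change reached by Day 12 was 38%. For those that fell by at least 1 it was 45.3%. Single genes differed in their timing. Pmel, Dct and Gpnmb did not pass the threshold from Day 10 to Day 12 (0.36, 0.22 and -0.33) and rose after it by 2.37, 1.92 and 4.08, while Tyr and Trpm1 rose in both steps (1.47 and 2.06, 1.03 and 0.58). Myc and Aldh1a1 fell early, by 3.99 and 5.31 from Day 10 to Day 12. Neuronal genes had started to rise at Day 12, with Dcx up by 3.06 and Tubb3 by 2.70, and for 15 of the 28 in the list the change after Day 12 was less positive than before it. The matrix protease Mmp9 and the peptide hormone Adm rose only after Day 12 by the threshold, by 5.29 and 4.97, and the urea transporter Slc14a2 only before it, by 3.68. Some genes turned. The axon guidance gene Sema3e fell by 5.27 and then rose by 1.89, and the substance P receptor gene Tacr1 fell by 0.64 and then rose by 4.17. The nuclear receptor gene Rxrg rose by 0.70 to Day 12 and then fell by 3.82, and Dkk1 rose by 1.35 and then fell by 3.31. Timp3 and Krt18 fell by 0.64 and 0.81 to Day 12 and then rose by 2.95 and 2.00.

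Against Day 15 +Fgf, 4238 genes were higher in Day 15 +Wnt (30.6%) and 5267 lower (38%). Both contrasts use the Day 15 +Wnt libraries. The RNA integrity numbers listed for the Day 15 +Wnt libraries are above those of every Day 15 +Fgf and Day 10 library. With RNA integrity as a covariate 6362 genes passed the threshold in this contrast, and 5034 rose and 5117 fell from Day 10. The RPE genes Pmel, Slc45a2 and Trpm1 were at 95.4 to 128, 0.811 to 1.7 and 57.7 to 80.6 CPM in Day 15 +Fgf, lower than in Day 15 +Wnt by 5.03, 5.19 and 4.82 on the log2 scale. Of the mature RPE genes 26 of 36 were higher in +Wnt and 1 lower, and of the Bruch's membrane genes 19 of 30 were higher and 9 lower. Of the glycolysis genes 14 of 23 were higher in +Wnt and 1 lower, with Slc2a1 at 1270, 1240 and 1380 CPM in Day 15 +Fgf (lower by 0.56, adjusted p = 2.53e-05) and Slc16a3 at 203, 209 and 242, against 263, 243 and 291 in Day 15 +Wnt (adjusted p = 0.483). Of the timing genes, Hmga2 was at 38.2 to 57.5 CPM in Day 15 +Fgf, higher than in +Wnt by 0.92, and Lin28b at 19.2 to 22.7, where the difference did not pass the threshold (log2 difference 0.18, adjusted p = 0.077).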

How the data were processed

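RNA-seq was read from 15 libraries in 5 groups of 3 biological replicates, grouped by their titles. Per the submitters' processing notes and the study's methods, the authors mapped reads to mm10 with TopHat2 2.0.8b, estimated fragments per UCSC gene with Cuffdiff and Cufflinks 2.1.1, and normalised them with edgeR 3.2.4. The deposited values are a normalised signal in CPM units whose columns sum to 936418 to 1075448. Dividing by the value of a single read gave whole reads, within 0.1, for 100% of the values above 0. The libraries were made with a stranded kit, and the strand used in counting is not given in the sources used here.

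log2(CPM + 0.3) was fitted with limma 3.58.1 (R 4.3.3) as 5 group means over all 15 libraries, moderated with a trend, two-sided, with Benjamini-Hochberg adjustment within each contrast and a threshold of 0.05. Genes needed at least 1 CPM in at least 3 libraries. edgeR 4.0.16 and DESeq2 1.42.0 were alternatives on recovered reads. The limma contrast of Day 15 +Wnt minus Day 10 was also run on simulated reads, with far fewer changed genes than in the data. The other contrasts, the lists and the scaling were not tested in this way. Counting intervals are exact binomial intervals of read sums and cover counting error only, as does the floor of 3 reads per library. Named genes are those the study's text names, the 12 largest changes in each direction, genes near 0 in 1 group, 4 genes for each time path, and members of 36 lists. Members and lists were chosen with earlier results of these data known. Symbols in more than 1 entry (154 symbols, 406 entries) were not named, and some genes of the rule are not reported here. Promoters came from RefSeq (GRCm38.p6), and positions and overlapping genes from GENCODE. Mitf, Rax, Six3, Six6, Lhx2, Axin2, Irx3, Vax2, Aldh1a1, Dct, Pmel, Slc24a5, Hps3, Timp3, Ctsb, Htra1, Lin28a, Sardh, Syn2 and Ndufa4l2 are among genes that overlap a gene on the other strand.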

Additional observations from a re-analysis of the deposited data

Results flagged for a closer look

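The change from Day 10 to Day 15 differed between the stimuli for 9505 genes, which is the number past the threshold in Day 15 +Wnt minus Day 15 +Fgf, since both start from the same Day 10 tissue. With RNA integrity as a covariate it was 6362. Among the genes the study's text names, the 12 largest changes in each direction, the genes near 0 in 1 group and those chosen for their time path, 10 that are given here were called in opposite directions against Day 10 in the 2 stimuli, and the test of the difference is that contrast. Log2 differences (+Wnt minus +Fgf) were positive for Tyr (4.45), Axin2 (3.54) and Mitf (3.28), which rose in +Wnt and fell in +Fgf. They were negative for Rax (-5.77), Fzd5 (-5.74), Crx (-5.18), Six3 (-3.33), Spred1 (-1.19), Spry2 (-0.94) and Spred2 (-0.77), which fell in +Wnt and rose in +Fgf. For Spry2 and Spred2 the fall in +Wnt was lost with plain CPM, at -0.13 and -0.19. No group of these data has 4 or more libraries, so no library was tested as an outlier.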

How the results depend on the processing

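Of 154 counts of genes under the alternatives, 152 stayed within 1.5 times the count reported. The exceptions were genes that fell by at least 1, 1859 after quantile normalisation against 1219, and genes that rose by at least 1, 1588 with a filter of 10 CPM against 2640, where fewer genes were tested. Genes past the threshold from Day 10 to Day 15 +Wnt numbered 11046, with 10653 to 10787 when 1 library was left out, 5796 higher and 5238 lower with edgeR, and 5482 and 5252 with DESeq2. Increases made up 49.6% of these calls, 43.5% after quantile normalisation and 59.4% with plain CPM, a scaling chosen after seeing the data. For the 211 single genes named here, 3324 of 3376 values under the alternatives kept their direction and their side of the threshold, 34 lost the call, 17 gained it and 1 turned. The turned value was that of Spry4, at -0.08 after quantile normalisation. The cause was not tested. With the replicate number as a replicate block 5454 genes rose and 5561 fell. Deviations of libraries with the same number correlated at 0.245, 0.0977 and -0.00459, and those with different numbers at -0.216 to 0.117. With 3 libraries per group these values cannot decide whether libraries with the same number share more than the number. Precision is limited by 3 libraries per group and, for genes near 0, by depth.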
